A study of Mus musculus with 24 samples.

Results

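The alpha-beta gap, meaning the difference in RNA level between alpha and beta cells of the mouse pancreatic islet, was compared between day and night. Alpha cells secrete glucagon and beta cells secrete insulin. The strain is labelled triple reporter mouse, and its reporters, sex and age are not given in the labels, nor is the way the cells were separated. Islets were isolated at 1 of 6 zeitgeber times (ZT, counted in hours, with lights on at ZT0 by convention). Day was represented by ZT4 and ZT8 and night by ZT16 and ZT20, which gave 4 groups: alpha cells by day, beta cells by day, alpha cells by night and beta cells by night. Each group held 4 libraries, 2 per time, so that 16 of the 24 libraries of the series entered the comparison. The 8 libraries of ZT0 and ZT12 were used only to show the course of single genes. All 14027 genes of the deposited table were tested.

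Islet cells carry their own circadian clock. In it, ARNTL (BMAL1) pairs with CLOCK or NPAS2 and switches on the Period and Cryptochrome genes, whose proteins inhibit that pair. Another loop runs through the REV-ERB and ROR nuclear receptors, which repress or activate Arntl and Nfil3, and outputs such as Dbp, Tef and Hlf carry the rhythm to other genes. In islets the clock is known to act on exocytosis and hormone secretion. A gene with the same daily course in both cell types keeps its alpha-beta gap, and a gene whose course differs in size or timing changes it.

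The values below are RPKM (reads scaled to gene length and library size), computed from the recovered reads, and log2 differences from the fit to the deposited log2 RPKM. The change of the gap is the gap by day minus the gap by night, so a positive value means that alpha cells gained on beta cells by day. A gap was wider by day or narrower by day where its sign was the same in both phases, and turned over where its sign was opposite. Calls rest on limma with Benjamini-Hochberg adjustment over all genes: a change of the gap needed an adjusted p under 0.05, and a gap needed in addition a difference of 2-fold or more. The 16 libraries held between 9383552 and 12364190 reads. The hormone genes matched the labels: Gcg gave 17% to 24.2% of the reads of alpha cells by day, 0.00481% to 0.281% of those of beta cells by day, 16% to 19.6% of those of alpha cells by night and 0.0138% to 0.042% of those of beta cells by night. The insulin genes gave 0.0683% to 0.506%, 19.8% to 26%, 0.107% to 0.356% and 16.4% to 22.8% of the reads of the same 4 groups. The labelled ZT4 libraries numbered 1 stood apart, with the highest insulin share among the alpha libraries (0.506%) and the highest Gcg share among the beta libraries (0.281%).

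Few genes changed their gap between the phases. Of the 14027 genes, 4 were called (0.0285%), and all 4 changes were positive. At an unadjusted p under 0.05 there were 1317 genes (9.39%), of which 817 had a positive change (5.82%) and 500 a negative one (3.56%). The gaps themselves were widespread. By day 2876 genes differed between alpha and beta cells (20.5%), with 1552 higher in alpha cells and 1324 higher in beta cells (9.44%). By night 3056 genes differed (21.8%), with 1659 higher in alpha cells and 1397 higher in beta cells (9.96%). The share of alpha-higher genes among these calls was 54% by day and 54.3% by night, but 44.5% and 44.6% on the log2(RPKM + 1) scale, and 42.8% and 42.4% among genes with a mean log2 RPKM above 0. A gap in the same direction was called in both phases for 2491 genes, which is 86.6% of the day calls and 81.5% of the night calls, and no gene had a called gap in opposite directions. A further 385 genes passed by day alone and 565 by night alone, and none of them was among the 4 called changes, so a gap past the threshold in one phase was not shown to differ from the other.

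The intervals set a limit on what may have been missed. The median size of the change was 0.17 on the log2 scale, with a median 95% half-width of 0.42, and for 10938 genes (78%) the whole 95% interval lay within 1 log2 unit of 0. In simulated reads of the same 14027 genes, the test recovered 34.3% of 67 genes with a 1.5-fold change of the gap. It recovered 86.6% of 67 genes with a 2-fold change and 100% of 66 genes with a 4-fold change, with 10 false calls. The simulated spread was that between libraries of the same time, and only genes above a minimum of reads were changed. The simulated reads also held many more changed genes than the 4 called in the data. An adjusted p under 0.05 is easier to reach with more changed genes, so the shares may overstate what the test could find in the data. A real change between the times of a phase counts as error, so these shares do not hold for genes with such a change.

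**Figure D1:**
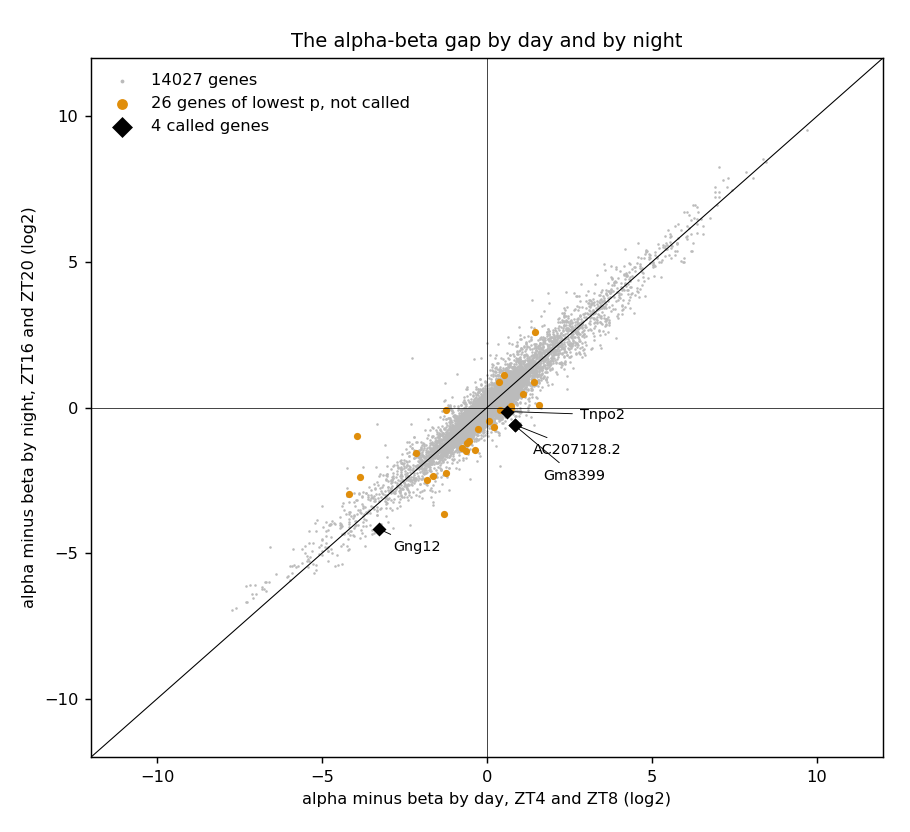
Each point is 1 of 14027 genes, with the alpha minus beta difference by day on the horizontal axis and by night on the vertical axis (log2 of the fitted means of 4 libraries each). Genes lie along the line of equal gaps, and the 4 called genes (black diamonds) lie below it, with Gng12 beta-higher in both phases and the means of Tnpo2, Gm8399 and AC207128.2 alpha-higher by day and beta-higher by night; orange points are the other genes of lowest p, not called.

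Tnpo2 encodes transportin 2, an import receptor that carries RNA-binding proteins into the nucleus. It lies on chromosome 8 from 85036915 to 85057583 (GRCm38, forward strand, protein-coding). By day its level was 22.6, 24.6, 26.1 and 23.5 RPKM in the alpha libraries, against 17.3, 16.3, 14.0 and 15.4 RPKM in the beta libraries. By night it was 19.6, 18.9, 20.1 and 19.6 RPKM in the alpha libraries, against 23.0, 22.2, 19.6 and 21.03 RPKM in the beta libraries. Every alpha library was above every beta library by day, and the cell types overlapped by night. The gap was 1.54-fold toward alpha cells by day (adjusted p = 2.82e-06) and 1.09-fold toward beta cells by night (adjusted p = 0.157). The change was 0.75 (SE 0.11, limma adjusted p = 0.0213), with 0.72 between ZT4 and ZT16 and 0.79 between ZT8 and ZT20. These pairs of times share no library, but both entered the fit that called the gene, so their likeness is no separate test. Both cell types moved, in opposite directions: Tnpo2 was higher by day than by night in alpha cells (log2 difference 0.31, adjusted p = 0.0164) and lower by day in beta cells (-0.45, adjusted p = 0.00192). At ZT0 the means were 21.8 RPKM in alpha cells, against 20.7 RPKM in beta cells, and at ZT12 they were 22.9 and 16.8 RPKM.

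The promoters of Tnpo2 and Cry1 are printed because Tnpo2 had the lowest adjusted p of the protein-coding calls and Cry1 had the lowest p of the core clock genes. They are RefSeq windows of 300 bases on GRCm38.p6 around an annotated start, with the E-box letters CACGTG, which are bound by ARNTL with CLOCK, in capitals. The Tnpo2 window is chr8:85036643-85036942 on the forward strand, and the Cry1 window is chr10:85185005-85185304 on the reverse strand.
Tnpo2: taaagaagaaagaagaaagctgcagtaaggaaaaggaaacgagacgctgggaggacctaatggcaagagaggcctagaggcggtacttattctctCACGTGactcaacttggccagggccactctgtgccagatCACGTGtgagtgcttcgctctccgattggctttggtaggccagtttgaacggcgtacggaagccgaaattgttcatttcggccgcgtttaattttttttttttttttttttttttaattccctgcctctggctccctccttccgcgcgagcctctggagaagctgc
Cry1: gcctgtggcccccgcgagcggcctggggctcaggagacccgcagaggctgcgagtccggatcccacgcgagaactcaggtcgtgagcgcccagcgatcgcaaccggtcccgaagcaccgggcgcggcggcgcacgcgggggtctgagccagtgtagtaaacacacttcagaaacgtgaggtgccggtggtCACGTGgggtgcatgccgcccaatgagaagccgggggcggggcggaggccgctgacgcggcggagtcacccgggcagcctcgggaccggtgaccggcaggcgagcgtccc
The Tnpo2 window held 2 matches and the Cry1 window 1, and 7.15% of all 32851 windows held at least 1 on either strand. Another Tnpo2 window, from 85036936 to 85037235, held none, and the 2 Gng12 windows held none. Of the 20 measured core clock genes 17 matched a window, with 23 windows in all. CACGTG was found in 6 of these windows (Per1, Cry1, Ciart, Bhlhe41 and both of Tef). TTATGTAA or TTACGTAA, the D-box letters bound by DBP, TEF and HLF, were found in 1 window (Per3), against 1.06% of all windows. AGGTCA, the letters bound by ROR and REV-ERB receptors, was found in 5 windows (Arntl, Clock, Per1, Nr1d2 and Nfil3), against 16.3% of all windows. These are matches of letters, and the data hold no measure of binding. The Tnpo2 and Gng12 windows were read after the values of these genes were seen.

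Gng12, the gamma subunit 12 of heterotrimeric G proteins, was the one called gene whose gap was narrower by day. It lies on chromosome 6 from 66896397 to 67021350 (forward strand, protein-coding). By day it had 14.8, 15.2, 13.2 and 12.8 RPKM in the alpha libraries, against 132, 155, 138 and 120 RPKM in the beta libraries. By night it had 14.6, 11.3, 11.4 and 12.4 RPKM in the alpha libraries, against 212, 214, 251 and 213 RPKM in the beta libraries. No beta library by day reached the level of a beta library by night, and the alpha libraries of the 2 phases overlapped. The beta excess was 9.71-fold by day and 17.9-fold by night, a change of 0.88 (SE 0.15, limma adjusted p = 0.0491). Beta cells accounted for a day-night difference of -0.71 (adjusted p = 0.000783), while that of alpha cells was 0.17 (adjusted p = 0.228). The adjusted p lay just under the threshold: of 30 other settings of the analysis, 10 kept the call, and 19 kept that of Tnpo2.

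The other called entries, Gm8399 and AC207128.2, overlap in position and had nearly equal read numbers. Gm8399 is annotated as a processed pseudogene on chromosome 13 from 81064684 to 81065800. AC207128.2, annotated as an antisense gene (9330111N05Rik in GENCODE M21), spans chromosome 13 from 80962888 to 81128864 and contains Gm8399 on the same strand, although 0 of the 1117 bases of Gm8399 lie in its exons in that annotation. In the 24 libraries Gm8399 had 73 to 267 reads and AC207128.2 had 71 to 266, with a ratio of 0.961 to 1.04. Whether the same reads were counted for both was not tested, and they are not treated as independent results. Gm8399 had 11.3, 15.3, 16.7 and 19.1 RPKM in the alpha libraries by day, against 7.46, 9.01, 8.44 and 8.99 RPKM in the beta libraries. Its night levels were 8.57, 8.06, 7.46 and 8.03 RPKM in the alpha libraries, against 11.3, 12.7, 14.5 and 11.1 RPKM in the beta libraries. The cell types did not overlap in either phase, and their order turned over. The gap was 1.80-fold toward alpha cells by day (adjusted p = 2.76e-05) and 1.53-fold toward beta cells by night (adjusted p = 0.000642), a change of 1.46 (SE 0.18, limma adjusted p = 0.00602). For AC207128.2 the change was 1.42 (SE 0.22, limma adjusted p = 0.026). Both are predicted genes, which the naming rule counts without naming, and they are named because the calls were so few.

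Gm8399 is a copy of Actg1, the gene of cytoplasmic gamma-actin on chromosome 11 from 120345690 to 120348542. Its 1117 annotated bases matched the 1128 bases of the Actg1 coding sequence at 98.6% of 1125 aligned positions, and those of Actb, cytoplasmic beta-actin, at 87.6%. Of the 1076 stretches of 50 bases in the alignment with Actg1, 676 (62.8%) were identical. A stretch of 120 bases is printed to show how alike the sequences are, with the 2 differing positions in capitals. It runs from base 594 to 713 of the GENCODE transcript of Gm8399 and from base 602 to 721 of the Actg1 coding sequence, counted from its start codon.
Gm8399: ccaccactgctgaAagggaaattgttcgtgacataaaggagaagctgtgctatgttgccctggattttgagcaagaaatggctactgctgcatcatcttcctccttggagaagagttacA
Actg1: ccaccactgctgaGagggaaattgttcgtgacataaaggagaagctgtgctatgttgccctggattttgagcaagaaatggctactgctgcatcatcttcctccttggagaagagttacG
Reads of the pseudogene and of Actg1 could therefore be exchanged in counting, and the treatment of reads with several matches was not stated in the labels. The division of reads among these copies is uncertain, so the levels below are those of the deposited entries.

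The actin genes themselves had changes of the same sign that did not pass the adjusted threshold. Actb is on chromosome 5 from 142903115 to 142906754. It had 402, 425, 471 and 554 RPKM in the alpha libraries by day, against 272, 281, 270 and 289 RPKM in the beta libraries. By night it had 336, 337, 360 and 356 RPKM in the alpha libraries, against 319, 373, 394 and 333 RPKM in the beta libraries. The cell types were apart by day and overlapped by night, a change of 0.75 (SE 0.15, unadjusted p = 0.000132, limma adjusted p = 0.116). Actb rose by day in alpha cells (0.40, adjusted p = 0.019) and fell by day in beta cells (-0.35, adjusted p = 0.0297). Actg1 averaged 70.3 RPKM in alpha cells, against 44.6 RPKM in beta cells by day, and 56.3 RPKM in alpha cells, against 53.0 RPKM in beta cells by night, a change of 0.56 (SE 0.14, limma adjusted p = 0.19). Gm12715, annotated as a processed pseudogene, was taken as an actin copy, and its sequence was not compared here. It averaged 44.9 and 28.6 RPKM in alpha and beta cells by day and 28.4 and 33.6 RPKM in alpha and beta cells by night (change 0.85, adjusted p = 0.172). Actg1 and Gm12715 were named after their values were seen.

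**Figure D2:**
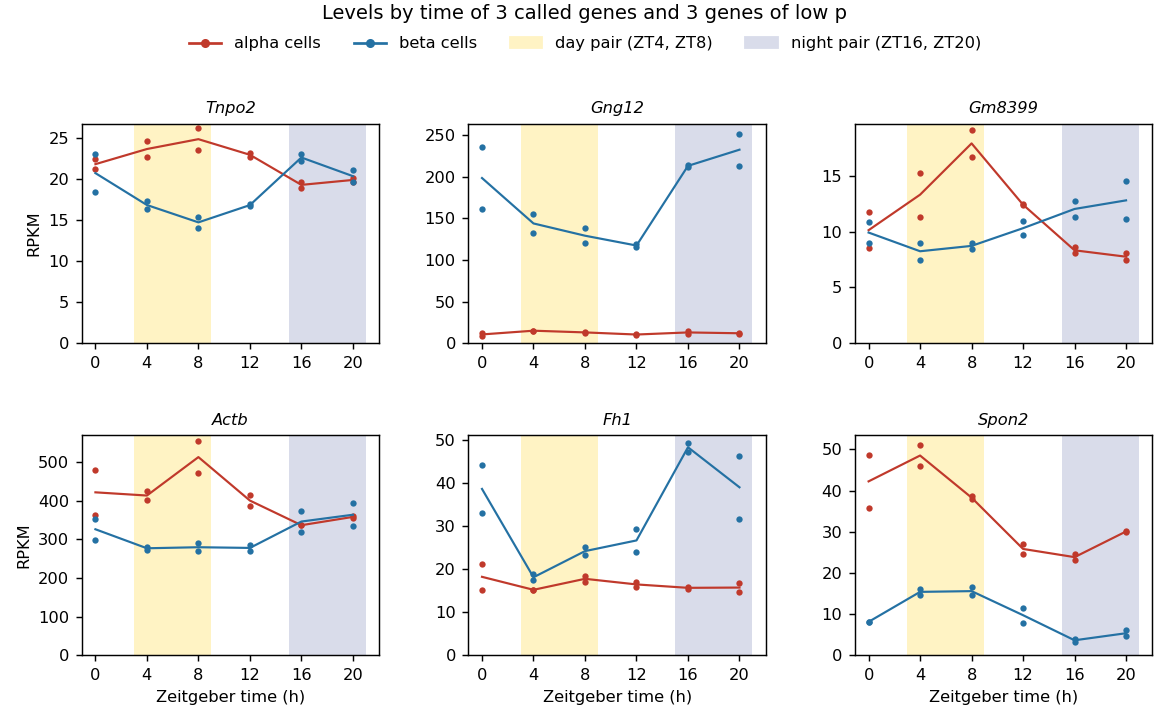
RPKM of 6 genes at the 6 zeitgeber times (horizontal axis, hours), with alpha cells in red and beta cells in blue; points are libraries, lines join the means of 2 libraries, and the shaded bands mark the times compared. Tnpo2, Gm8399 and Actb are higher in alpha cells by day and near or below the beta level by night, Gng12 and Fh1 move in beta cells, and Spon2 is higher by day in both; Actb, Fh1 and Spon2 did not pass the adjusted threshold.

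The 30 genes of lowest p with at least 1 RPKM in a group included the 4 called genes and 2 further predicted genes. Of these 30 changes, 22 were positive and 8 negative. By class, 9 gaps were wider by day, 14 narrower by day and 7 turned over. All 30 had the same sign between ZT4 and ZT16 as between ZT8 and ZT20, which describes the genes chosen from both pairs together. Chosen on 1 pair alone, 901 genes with at least 1 RPKM had an unadjusted p under 0.05 between ZT4 and ZT16, and 73.9% of them had the same sign between ZT8 and ZT20. Of 883 such genes between ZT8 and ZT20, 73.2% had the same sign between ZT4 and ZT16. Among all 12659 genes with at least 1 RPKM the share was 57.2%.

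Among the uncalled genes of this group, several had a beta level that fell by day while the alpha level moved little. Fh1, fumarate hydratase of the citric acid cycle, had 15.1, 15.2, 18.3 and 17.1 RPKM in the alpha libraries by day, against 17.4, 18.7, 23.1 and 25.1 RPKM in the beta libraries. Its night levels were 15.9, 15.3, 14.6 and 16.8 RPKM in the alpha libraries, against 47.2, 49.2, 46.2 and 31.7 RPKM in the beta libraries. The beta excess was 1.27-fold by day and 2.74-fold by night, a change of 1.11 (SE 0.19, limma adjusted p = 0.0684), and 7 of the 30 other settings called it. Sec23b, a coat subunit of vesicles that leave the endoplasmic reticulum, averaged 21.4 RPKM in alpha cells, against 32.3 RPKM in beta cells by day, and 22.5 RPKM in alpha cells, against 51.9 RPKM in beta cells by night (change 0.61, adjusted p = 0.116). Ttc37, a subunit of the SKI complex that feeds RNA to the exosome, averaged 13.7 and 13.1 RPKM in alpha and beta cells by day and 14.1 and 19.3 RPKM in alpha and beta cells by night (change 0.51, adjusted p = 0.116). In Fh1, Sec23b and Ttc37 the day-night difference of beta cells passed its own test (adjusted p of at most 0.000396) and that of alpha cells did not (adjusted p from 0.547 to 0.737).

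Ubr4, a ubiquitin ligase that recognises the ends of proteins, was higher by night in both cell types, with a log2 day-night difference of -0.64 in alpha cells (adjusted p = 0.00705) and -1.52 in beta cells (adjusted p = 1.66e-05). It averaged 38.5 RPKM in alpha cells, against 33.3 RPKM in beta cells by day, and 60.2 RPKM in alpha cells, against 96.1 RPKM in beta cells by night (change 0.88, adjusted p = 0.116). The oxysterol-binding protein gene Osbpl10 averaged 2.33 and 5.65 RPKM in alpha and beta cells by day and 1.95 and 9.61 RPKM in alpha and beta cells by night, a gap of 2.34-fold by day and 4.77-fold by night toward beta cells. Aldh4a1, a mitochondrial enzyme of proline breakdown, was alpha-higher, 2.14-fold by day and 1.40-fold by night. Armcx2, an armadillo-repeat gene on the X chromosome, was 1.33-fold higher in alpha cells by day and 1.04-fold higher in beta cells by night.

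Some genes moved in opposite directions in the cell types. A day-night difference was called in alpha cells for 2771 genes (19.8%, with 10.3% higher by day) and in beta cells for 3379 genes (24.1%). In 1384 genes both were called in the same direction, and in 12 genes in opposite directions. Besides Tnpo2, Gm8399, AC207128.2 and Actb these 12 included Dclk1, a kinase bound to microtubules, the cation channel gene Trpc4, Vasn, which encodes a binding protein of TGF-beta, Fam83g, which encodes a binding partner of casein kinase 1, and Klhl25, an adaptor of a ubiquitin ligase. Dclk1 averaged 1.15 RPKM in alpha cells, against 0.367 RPKM in beta cells by day, and 0.711 RPKM in alpha cells, against 0.655 RPKM in beta cells by night. The alpha excess was 3.01-fold by day and 1.06-fold by night, a change of 1.51 (SE 0.30, adjusted p = 0.116). Trpc4 was beta-higher, with 0.263 RPKM in alpha cells, against 5.55 RPKM in beta cells by day, and 0.437 RPKM in alpha cells, against 3.80 RPKM in beta cells by night, a change of -1.20 (SE 0.25, adjusted p = 0.116). Klhl25 was 1.66-fold higher in alpha cells by day and 1.03-fold by night. The beta excess of Fam83g was 3.51-fold by day and 5.61-fold by night, and that of Vasn was 1.55-fold by day and 2.82-fold by night.

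In the remaining genes 1 cell type moved alone or more than the other. Spon2, a secreted matrix protein, had 46.0, 51.0, 38.6 and 38.0 RPKM in the alpha libraries by day, against 14.6, 16.2, 14.6 and 16.5 RPKM in the beta libraries. By night it had 23.1, 24.5, 30.1 and 30.04 RPKM in the alpha libraries, against 4.05, 3.20, 6.05 and 4.63 RPKM in the beta libraries. It was higher by day in both cell types, and the alpha excess was 2.78-fold by day and 6.03-fold by night, a change of -1.12 (SE 0.22, adjusted p = 0.116). Shroom3, which encodes an actin-binding protein, was 1.43-fold higher in alpha cells by day and 2.20-fold by night, with a day-night difference in beta cells of 0.65 (adjusted p = 0.000783). Ppp3cc, a catalytic subunit of the phosphatase calcineurin, was 1.28-fold higher in alpha cells by day and 1.86-fold by night. S100a4, a calcium-binding protein gene of low level, averaged 0.442 RPKM in alpha cells, against 10.8 RPKM in beta cells by day, and 0.732 RPKM in alpha cells, against 2.16 RPKM in beta cells by night, a change of -2.94 (SE 0.62, adjusted p = 0.116). Tnfrsf11b, which encodes the decoy receptor osteoprotegerin, was beta-higher 14.3-fold by day and 5.16-fold by night. Kctd8, an auxiliary subunit of GABA-B receptors, was beta-higher 2.35-fold by day and 1.05-fold by night. In alpha cells, the microtubule-binding Eml2 averaged 17.1 RPKM by day and 12.7 RPKM by night, and the secreted Fam19a5 averaged 9.70 RPKM by day and 6.70 RPKM by night. Their beta means were 6.29 RPKM by day and 6.87 RPKM by night for Eml2, and 16.4 and 17.4 RPKM for Fam19a5. Sowahc averaged 23.1 and 27.9 RPKM in alpha and beta cells by day and 18.6 and 31.1 RPKM in alpha and beta cells by night. The olfactory receptor gene Olfr1322 was at 0 in 5 of the 8 alpha libraries, with 0.492 RPKM in beta cells by day and 2.92 RPKM by night.

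No core clock gene was called in the comparison, out of 20 measured (0.0285% of all genes were called). An unadjusted p under 0.05 was found for 1 of them, against 9.39% of all genes. In some of them, such as Arntl and Dbp, the spread within a phase was large. The levels of these 2 genes differed between the times of a phase, which count as replicates of it. With each time given its own mean, so that only the 2 libraries of a time measure the spread, the changes of the gap were the same, the errors of the genes named below were smaller except for Rorb, and Dbp passed (adjusted p = 0.0311). With all 24 libraries in the fit, Arntl, Nr1d2 and Dbp passed (adjusted p from 0.00937 to 0.0332). With time and replicate number together as a block, Cry1, Nr1d2 and Dbp passed (limma adjusted p from 0.0208 to 0.0446). The intervals of most clock genes in the 4-group comparison thus do not show that their gaps were equal.

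Among the activators, Arntl had its gap at ZT8. There it had 5.97 and 5.73 RPKM in the alpha libraries, against 0.863 and 1.63 RPKM in the beta libraries. At ZT4 it had 10.8 and 9.10 RPKM in the alpha libraries, against 8.88 and 8.91 RPKM in the beta libraries. The alpha minus beta gap of Arntl was -0.15, 0.15, 2.24, 1.29, -0.31 and -0.18 on the log2 scale at ZT0, ZT4, ZT8, ZT12, ZT16 and ZT20. The change of the gap was 1.44 (SE 0.98, adjusted p = 0.709), and 0.0564 was the adjusted p with each time its own mean. Clock had nearly the same gap in both phases. It averaged 19.9 RPKM in alpha cells, against 28.4 RPKM in beta cells by day. By night it averaged 19.8 RPKM in alpha cells, against 28.3 RPKM in beta cells. The change was 0.01 with a 95% interval from -0.26 to 0.28. Its level moved within the phases: the beta means were 31.35, 25.55, 26.59 and 30.06 RPKM at ZT4, ZT8, ZT16 and ZT20. Npas2, which can replace CLOCK, had at most 1.21 RPKM in the mean of a cell type at any time, and its change was 0.81 (SE 1.12).

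Of the repressors, Cry1 had the lowest p of the clock genes (0.01 unadjusted, 0.338 adjusted), with a change of 0.76 (SE 0.26). By day it averaged 4.67 ± 1.05 RPKM in alpha cells, against 3.60 ± 0.61 RPKM in beta cells, and by night 9.90 ± 2.39 RPKM in alpha cells, against 12.98 ± 2.19 RPKM in beta cells (SD, n = 4 each). Its gap was 0.22, 0.42 and 0.29 at ZT0, ZT4 and ZT8 and -0.60, -0.50 and -0.31 at ZT12, ZT16 and ZT20, so alpha cells were higher in the first 3 times and beta cells in the last 3. Per3 was close between the cell types at ZT8, with means of 2.88 RPKM in alpha cells, against 3.45 RPKM in beta cells, and alpha-higher at ZT16, with 11.6 and 5.32 RPKM, a change of -1.21 (SE 0.64, adjusted p = 0.591). Per2 (-0.51, SE 0.32) and Per1 (-0.27, SE 0.46) had negative changes that were positive between ZT4 and ZT16 alone (0.01 for Per2 and 0.20 for Per1), Cry2 had 0.14 (SE 0.20), and Ciart, listed as Gm129, had -0.98 (SE 0.83). Per1, Per2 and Cry1 were higher by night in both cell types by their own tests (adjusted p of at most 0.0492).

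In the second loop, Nr1d1 and Nr1d2, the REV-ERB receptors, had higher means in beta cells by day, and their means were near equal at ZT16. Nr1d1 averaged 3.18 RPKM in alpha cells, against 7.94 RPKM in beta cells at ZT4, and 7.12 and 11.3 RPKM at ZT8. At ZT16 it averaged 2.86 RPKM in alpha cells, against 2.96 RPKM in beta cells, and at ZT20 it averaged 0.966 RPKM in alpha cells, against 1.33 RPKM in beta cells. Its gap was -1.31, -0.68, -0.06 and -0.47 on the log2 scale at ZT4, ZT8, ZT16 and ZT20. Nr1d2 averaged 22.4 RPKM in alpha cells, against 40.6 RPKM in beta cells by day, and 15.6 RPKM in alpha cells, against 16.3 RPKM in beta cells by night. The changes were -0.72 (SE 0.61) for Nr1d1 and -0.79 (SE 0.59) for Nr1d2. Rora had a change of 0.01 with a 95% interval from -0.24 to 0.25, and Rorb, at most 0.192 RPKM in any mean of a time, had -0.23 (SE 0.43).

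The output genes split by sign. Dbp was beta-higher by day, with means of 4.78 RPKM in alpha cells, against 9.36 RPKM in beta cells at ZT4, and 14.5 and 35.8 RPKM at ZT8. By night it was equal, with 7.60 RPKM in alpha cells, against 7.33 RPKM in beta cells at ZT16. Its change was -1.18 (SE 0.79, adjusted p = 0.698), and the SE was 0.18 with each time its own mean. Tef ran alongside, with a change of -0.70 (SE 0.50). Nfil3, which opposes these factors, had the largest gap of the 20 clock genes over the 6 times, at ZT8, where the alpha libraries had 8.91 and 27.0 RPKM, against 1.05 and 4.04 RPKM in the beta libraries. The libraries of each cell type differed widely there, and the gap at ZT16 was 0.02. Its change was 1.66 (SE 1.02, adjusted p = 0.669). Hlf kept its alpha excess, 1.21 by day and 1.16 by night on the log2 scale, a change of 0.05 (SE 0.35). The DEC repressors Bhlhe40 (0.31, SE 0.56) and Bhlhe41 (-0.08, SE 0.23) were beta-higher in both phases. Of 11 clock kinases and ubiquitin ligases none was called, and Csnk2a2 (0.39) and Usp2 (0.76) had an unadjusted p under 0.05 (9.39% of all genes).

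**Figure D3:**
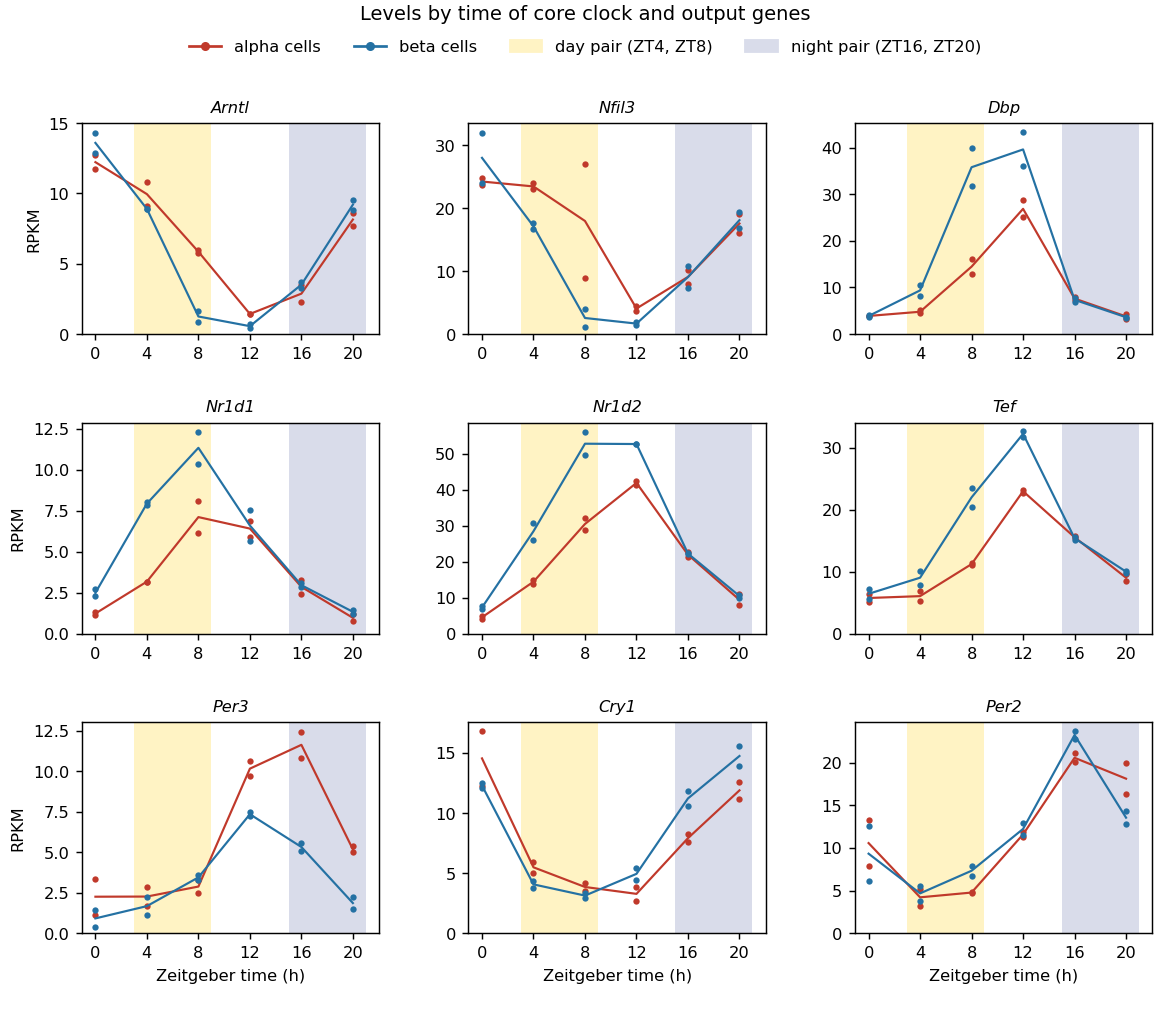
RPKM of 9 core clock and output genes at the 6 zeitgeber times (horizontal axis, hours), with alpha cells in red and beta cells in blue; points are libraries, lines join the means of 2 libraries, and the shaded bands mark the times compared. At ZT8 alpha cells are higher for Arntl and Nfil3, and beta cells are higher for Dbp, Nr1d1, Nr1d2 and Tef; none of the 9 passed the adjusted threshold in the 4-group comparison.

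No hormone gene changed its gap by the test. Gcg averaged 140500 RPKM in alpha cells, against 540 RPKM in beta cells by day, and 107600 RPKM in alpha cells, against 159 RPKM in beta cells by night, a change of 0.17 (SE 1.18). The beta mean by day rests on replicate 1 of ZT4, with 1910 RPKM against 36.6 to 131 RPKM in the other 3 libraries. The insulin genes Ins1 and Ins2 had changes of -0.80 (SE 0.66) and -0.72 (SE 0.66), Iapp, co-secreted with insulin, -0.54 (SE 0.33), and Ppy and Pyy 0.08 (SE 0.53) and 0.09 (SE 0.34). Ins1 and Ins2 are near-identical, so their levels may share reads. Sst, the hormone gene of delta cells, had the lowest p (0.0108 unadjusted, 0.347 adjusted). By day it had 2691, 4009, 3475 and 2771 RPKM in the alpha libraries, against 1395, 1294, 1224 and 1405 RPKM in the beta libraries. Its night levels were 4215, 3404, 4969 and 3557 RPKM in the alpha libraries, against 924, 1028, 1311 and 634 RPKM in the beta libraries. The alpha libraries were above the beta libraries in both phases, with an excess of 2.40-fold by day and 4.23-fold by night, a change of -0.82 (SE 0.28). Without both ZT4 libraries numbered 1, all 7 hormone genes had an unadjusted p under 0.05, and none was called. Of these changes 3 were positive and 4 negative, against 6.99% and 4.26% of all genes in that setting. The libraries left out were singled out by their hormone reads, so this count is no separate support for a change.

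**Figure D4:**
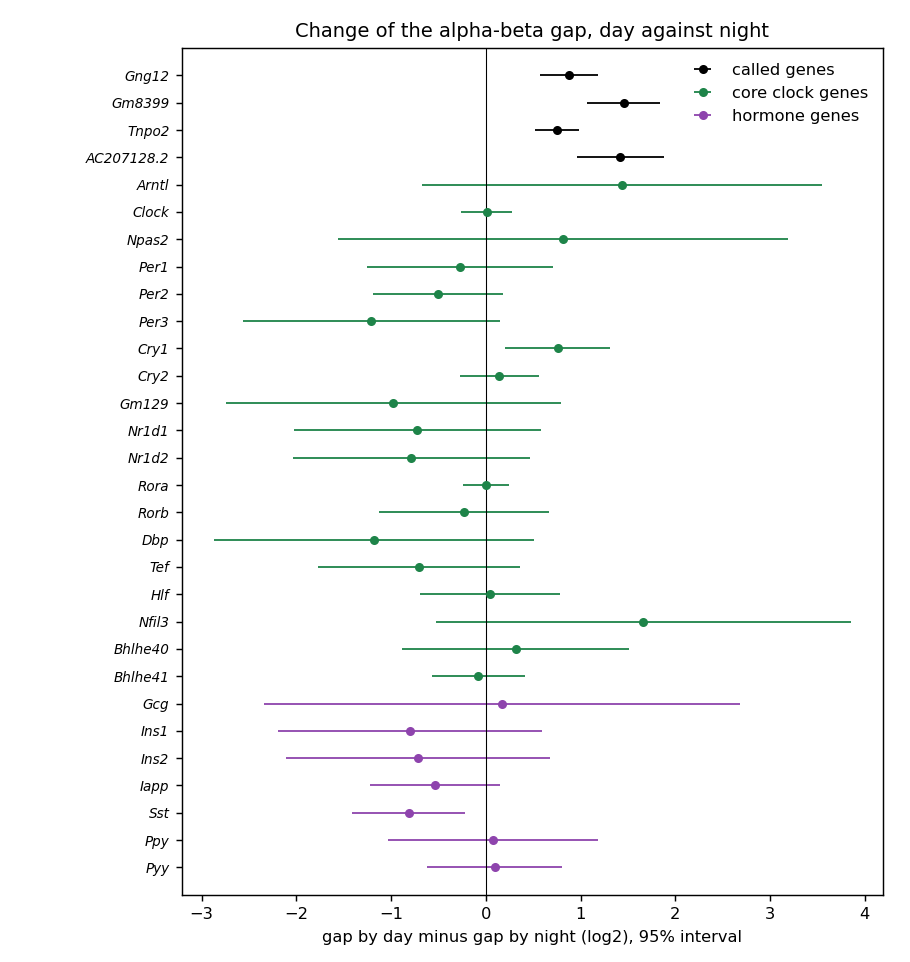
Change of the alpha-beta gap (day minus night, log2, horizontal axis) with its 95% interval for the 4 called genes, core clock genes and the 7 hormone genes. The intervals of the called genes lie above 0; of the clock genes shown only that of Cry1 lies off 0, and the interval of Gcg runs from -2.34 to 2.68.

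Genes of beta cell identity had a negative change in nearly every member. Of 20 measured, 19 had a negative change, with a median of -0.61. Over all genes 54.2% of the changes were positive, and the median was 0.02. None was called, and 4 had an unadjusted p under 0.05, all negative (3.56% of all genes). They were Slc30a8, the zinc transporter of insulin granules (-0.43), Gjd2, the gap junction protein connexin 36 (-0.41), the transcription factor gene Pdx1 (-0.73) and the peptide gene Npy (-1.74). Slc30a8 averaged 485 RPKM in alpha cells, against 801 RPKM in beta cells by day, and 445 RPKM in alpha cells, against 544 RPKM in beta cells by night. Pdx1 averaged 2.33 RPKM in alpha cells, against 59.5 RPKM in beta cells by day, and 3.94 RPKM in alpha cells, against 61.6 RPKM in beta cells by night.

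Insulin reads were also present in the alpha libraries. They were 0.506%, 0.109%, 0.0805% and 0.0683% of the reads by day and 0.356%, 0.139%, 0.107% and 0.168% by night. Without both ZT4 libraries numbered 1, 16 of the 20 beta identity genes had an unadjusted p under 0.05, all negative (4.26% of all genes), with a median of -1.20, and none was called. These libraries were singled out by their insulin and Gcg shares, so this count is no separate support for a change. The part of the insulin reads in the result was not tested. Of 15 alpha identity genes 11 had a positive change with a median of 0.05, and none had an unadjusted p under 0.05. Without the same libraries 14 of them were positive (55.4% of all genes in that setting), with a median of 0.25. In that setting 3 had a positive change at an unadjusted p under 0.05 (6.99% of all genes). In such bulk libraries, fewer cells of a type and less RNA per cell cannot be told apart.

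Delta cell markers had negative changes as well. All 7 had a negative change, with a median of -0.64, where 54.2% of all genes had a positive one. None was called, and Sst and Hhex, a transcription factor gene of delta cells (-0.99), had a negative change at an unadjusted p under 0.05 (3.56% of all genes). Without both ZT4 libraries numbered 1, 6 of the 7 were negative, where 55.4% of all genes had a positive change. In that setting 1 had a negative change at an unadjusted p under 0.05 (4.26% of all genes). The summed level of the list was 2900 to 4320 RPKM in alpha libraries by day, 1280 to 1480 RPKM in beta libraries by day, 3660 to 5210 RPKM in alpha libraries by night and 686 to 1350 RPKM in beta libraries by night. Markers of 4 other lineages were low throughout: the summed endothelial markers reached at most 2.31 RPKM, the stromal ones 9.14 RPKM, the glial ones 5.15 RPKM and the immune ones 70.7 RPKM in any of the 16 libraries. Of the members described here Pdgfrb and Cdh19 had an unadjusted p under 0.05, at means of at most 0.735 RPKM. The summed acinar markers had 104 to 370 RPKM in alpha libraries by day, 72.8 to 546 RPKM in beta libraries by day, 163 to 310 RPKM in alpha libraries by night and 204 to 552 RPKM in beta libraries by night. Of 18 acinar markers 1 had an unadjusted p under 0.05 (9.39% of all genes), Bhlha15 (1.25), a transcription factor gene of secretory cells. Bhlha15 averaged 3.65 and 10.1 RPKM in alpha and beta cells by day and 4.54 and 28.0 RPKM in alpha and beta cells by night.

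Genes of sterol and fatty acid synthesis mostly had positive changes. Of 26 measured none was called, 22 had a positive change (54.2% of all genes), and 8 had a positive change at an unadjusted p under 0.05 (5.82% of all genes). In beta cells 12 were higher by night by their own test, against 13.2% of all genes, and in alpha cells 2, against 9.47% of all genes. Lss, which makes lanosterol, had 3.49, 2.91, 3.21 and 3.25 RPKM in the alpha libraries by day, against 4.96, 4.65, 4.66 and 4.58 RPKM in the beta libraries. By night it had 3.49, 4.19, 3.74 and 3.96 RPKM in the alpha libraries, against 8.27, 9.06, 7.78 and 8.78 RPKM in the beta libraries. No beta library by day reached a beta library by night, and the change was 0.59 (SE 0.13, adjusted p = 0.116). Hmgcs1, which makes HMG-CoA (0.47), Acly, which makes cytosolic acetyl-CoA (0.49), and Mvd of the mevalonate pathway (0.82) had changes of the same sign (adjusted p from 0.201 to 0.287). Elovl5, a fatty acid elongase, was the one member with a negative change at an unadjusted p under 0.05 (-0.42). Without both ZT4 libraries numbered 1 the count was again 8 positive and 1 negative (6.99% and 4.26% of all genes in that setting). There 19 of the 26 changes were positive (55.4% of all genes). Elovl5 was named after its values were seen.

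Among the genes of the unfolded protein response and of folding in the endoplasmic reticulum, of 24 measured none was called, 21 had a positive change (54.2% of all genes) with a median of 0.18, and 3 had a positive change at an unadjusted p under 0.05 (5.82% of all genes). Hspa5, the chaperone BiP, averaged 304 RPKM in alpha cells, against 548 RPKM in beta cells by day, and 313 RPKM in alpha cells, against 768 RPKM in beta cells by night (change 0.45, adjusted p = 0.347). Pdia4, a disulfide isomerase (0.43), and Manf, a secreted stress factor (0.34), were the others. Among 25 exocytosis genes Syt4, a synaptotagmin of secretory vesicles, averaged 25.4 and 49.4 RPKM in alpha and beta cells by day and 25.9 and 72.7 RPKM in alpha and beta cells by night (change 0.53, adjusted p = 0.124), and Rab3a had 0.34.

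**Figure D5:**
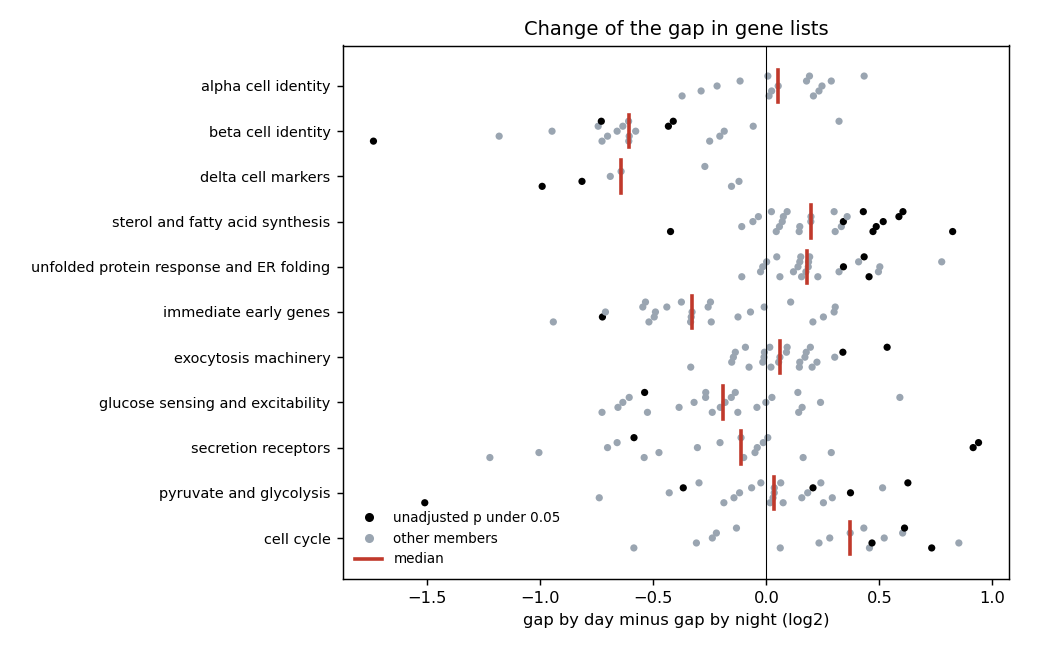
Change of the alpha-beta gap (day minus night, log2, horizontal axis) of every measured member of 11 gene lists, with members at an unadjusted p under 0.05 in black and the list median as a red bar. The median is -0.61 for beta identity genes, -0.64 for delta cell markers, 0.20 for sterol and fatty acid synthesis and 0.18 for the unfolded protein response; no member passed the adjusted threshold.

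Of 19 receptors that act on secretion 3 had an unadjusted p under 0.05 (9.39% of all genes). Ffar1, a receptor for long-chain fatty acids, averaged 12.5 and 50.3 RPKM in alpha and beta cells by day and 7.28 and 54.1 RPKM in alpha and beta cells by night, a change of 0.91 (SE 0.21, adjusted p = 0.139), and alpha cells were higher by day by their own test (adjusted p = 0.00557). Igf1r, the receptor of insulin-like growth factor 1, averaged 9.61 and 20.6 RPKM in alpha and beta cells by day and 9.95 and 41.8 RPKM in alpha and beta cells by night (change 0.94, adjusted p = 0.216). Ffar4, listed as O3far1, was alpha-higher, with a change of -0.59 (adjusted p = 0.521). Among fasting and glucocorticoid targets the metallothionein genes Mt2 and Mt1 were higher by day in both cell types, with a log2 day-night difference of 2.42 in alpha cells and 1.34 in beta cells for Mt2. Their beta gaps were narrower by day, by 1.07 for Mt2 (adjusted p = 0.19) and 0.77 for Mt1 (adjusted p = 0.504).

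In energy metabolism, 5 of 25 pyruvate and glycolysis genes had an unadjusted p under 0.05 and none was called. Over all genes 9.39% had such a p, 5.82% with a positive and 3.56% with a negative change, which is the background of this count and of those for excitability, cell cycle and immediate early genes. Pdp2, a phosphatase that activates pyruvate dehydrogenase (0.63), Pdha1, a subunit of that enzyme (0.37), and Pfkl, the liver-type phosphofructokinase (0.21), had positive changes. Pkm, the pyruvate kinase of most tissues (-0.37), and Ldha, lactate dehydrogenase A (-1.51), had negative ones, and Ldha was at or below 0.724 RPKM in every group mean. Of 24 genes of glucose sensing and excitability 1 passed the unadjusted threshold, the sodium channel gene Scn3a (-0.54). Of 17 cell cycle genes 3 did, Ccnd1, the cyclin D1 gene (0.47), Mcm2 (0.61) and Rrm2 (0.73). Of 24 immediate early genes 1 did, Ier3 (-0.73), and 19 had a negative change, where 54.2% of all genes had a positive one, with a median 95% half-width of 1.72. Their summed level in alpha libraries by day ran from 543 to 3220 RPKM, against 1230 to 1740 RPKM by night, and in beta libraries it ran from 333 to 1320 RPKM by day and from 498 to 881 RPKM by night. Without replicate 2 of the ZT8 alpha cells, the library with 3220 RPKM, all 24 changes were negative, where 54.1% of all genes had a positive one. That setting kept the same-numbered beta library, which had the highest sum of the beta libraries by day (1320 RPKM).

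Of the remaining lists none had a called member, and few members had an unadjusted p under 0.05 (9.39% of all genes). Among 12 lipid droplet and lipolysis genes these were the fatty acid-binding protein gene Fabp5 (-1.11) and Mgll, monoglyceride lipase (-1.04), both at most 0.586 RPKM in every group mean. Among 16 amino acid transporters they were Slc7a1, a carrier of cationic amino acids (0.68), and Slc3a1, a subunit of a cystine carrier (-1.12). Among 19 antioxidant enzymes Hmox1, heme oxygenase 1, had a change of 1.17, and Nqo1, a quinone reductase, had -0.77. Nqo1 averaged 0.837 RPKM in alpha cells, against 9.41 RPKM in beta cells by day, and 0.624 RPKM in alpha cells, against 4.42 RPKM in beta cells by night. Among 26 genes of cAMP and calcium signalling they were the phosphodiesterase gene Pde4b (0.30) and Atp2a3, a calcium pump of the endoplasmic reticulum (0.29). Among 14 pan-endocrine genes it was the transcription factor gene Rfx6 (-0.44), which averaged 23.7 and 29.8 RPKM in alpha and beta cells by day and 32.4 and 30.5 RPKM in alpha and beta cells by night. Among 5 duct markers it was the keratin gene Krt18 (0.43). No member of the 14 heat shock and chaperone genes, the 4 markers of PP cells or the 2 cold-inducible genes did.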

How the data were processed

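RNA of alpha and beta cells was sequenced after ribosomal depletion with a stranded total RNA kit, per the labels' protocols. STAR and mm10 are named in the submitters' processing notes, without versions. No source used here gives the annotation, the strand setting, the treatment of reads with several matches or the filter on genes. The values deposited by the authors are log2 RPKM with a prior count that averaged 2.0 reads, as found from the values: for all 14027 genes they gave whole reads, with a largest deviation of 8.3e-08. RPKM in the text was computed from these reads with no prior count, and log2 differences come from the deposited values. Of the 14027 identifiers, 13802 matched GENCODE and 144 entries share a symbol.

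The deposited log2 values of 16 libraries were fitted with limma 3.58.1 (trend and robust estimation, R 4.3.3), with 1 mean for each of 4 groups of cell type and phase and Benjamini-Hochberg adjustment over all genes. The 2 times of a phase counted as replicates, so a change between them is error. The labels do not say whether each library came from another animal, and p-values here reflect the spread among the libraries, which may be technical. The code was tested on simulated data.

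The comparison, gene lists and tests were chosen with earlier results of these data known. The named genes are the called genes, those of lowest p up to 30 with at least 1 RPKM in a group mean, the core clock and hormone genes, and up to 4 members of any other list with the lowest p among those at an unadjusted p under 0.05. Predicted genes are counted, not named, except Gm8399, AC207128.2 and Gm12715. A few genes that the rule would name are not reported here. The actins, the Tnpo2 and Gng12 promoters and the list counts without single libraries were chosen after the values were seen. The alternatives changed the times, libraries, pseudocount, filter, normalization, test, variance prior and replicate block, and left out libraries.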

Additional observations from a re-analysis of the deposited data

Results flagged for a closer look

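In 15 of the 148 groups of 4 libraries examined, over 37 genes, 1 library lay apart from the other 3, by a gap above Dixon's 95% critical value, which chance exceeds in about 1 group in 20. The genes include those of lowest p. The ZT4 libraries numbered 1 had raised levels of hormone genes that were higher in libraries of the other cell type. In the beta library Gcg had 1910 RPKM (36.6 to 131 in the others by day) and Ppy had 1260 RPKM (240 to 307). In the alpha library of the same time and number, Ins1 had 1530 RPKM (227 to 373) and Ins2 had 3640 RPKM (549 to 898). Replicate 1 of the ZT20 beta cells had 91800 RPKM of Ins1 (60000 to 64700), 197000 RPKM of Ins2 (130000 to 138000) and 251 RPKM of Gng12 (212 to 214). Replicate 1 of the ZT8 alpha cells had 42400 RPKM of Ppy (30500 to 32100). Replicate 2 of the ZT8 beta cells had 11.4 RPKM of Fam83g (14.7 to 15.1) and 3.51 RPKM of Kctd8 (2.67 to 2.80).

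Vasn had 3.88 RPKM in replicate 1 of the ZT4 alpha cells (4.72 to 4.79 in the others by day) and 4.33 RPKM in replicate 2 of the ZT20 alpha cells (2.91 to 3.09 in the others by night). This ZT20 library also had 8.57 RPKM of Aldh4a1 (9.55 to 9.74). Replicate 2 of the ZT4 alpha cells had 13.5 RPKM of Shroom3 (11.1 to 11.5), and replicate 1 of the ZT16 alpha cells had 0.194 RPKM of Olfr1322, which was at 0 in the other 3.

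The day-night difference of alpha cells minus that of beta cells passed its own test (limma, adjusted p under 0.05) for Tnpo2 (0.75), Gng12 (0.88), Gm8399 (1.46) and AC207128.2 (1.42).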

How the results depend on the processing

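The 4 called changes of the gap became 12 with each time its own mean, 37 with all 24 libraries, 12 on the log2(RPKM + 1) scale, 2 without trend and robust estimation, 8 without both ZT4 libraries numbered 1, and 0 between ZT4 and ZT16 alone (limma, 963 at an unadjusted p under 0.05). Leaving out 1 library gave 1 to 18 calls, with 18 without replicate 1 of the ZT4 alpha cells. Of 30 other settings Gm8399 was called in 29, Tnpo2 in 19, AC207128.2 in 15 and Gng12 in 10, each with its sign kept in all 30. The cause of these moves was not tested, beside fewer libraries where some were left out. On the log2(RPKM + 1) scale 1587 gaps were called by day and 1735 by night, and above a mean log2 RPKM of 0 there were 1742 and 1879. Leaving out 1 library gave 2796 to 3021 gaps by day and 3012 to 3108 by night. Day-night differences of alpha cells numbered 33 between ZT4 and ZT16 (63.6% higher by day, against 52% of all calls), 807 between ZT8 and ZT20, 4529 without both ZT4 libraries numbered 1, and 832 to 4159 with 1 library left out. Those of beta cells numbered 1331, 209 and, with 1 library left out, 1585 to 4392. The main fit did not pair libraries by replicate number. Deviations of same-numbered alpha and beta libraries correlated across genes at 0.65 at ZT0, 0.42 at ZT4 and 0.34 at ZT8. At ZT12, ZT16 and ZT20 the correlations were 0.1, 0.19 and 0.041. Whether a number marks a shared source of the libraries was not tested. With time and number together as a replicate block 31 changes were called, and with the number alone 3. Of 110 genes followed, 97 kept the sign of their change in every setting that gave a value. The other 13 took the opposite sign in at least 1 setting and were called in none, among them Clock (-0.14 to 0.16), Hlf (-0.23 to 0.32), Rora (-0.06 to 0.05), Gcg (-1.05 to 1.49), Ppy (-0.40 to 0.65) and Pyy (-0.19 to 0.50).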
